A study of Mus musculus with 40 samples.

Results

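The genes described here are 10 genes of the circadian clock, chosen by name from a mouse count table of 55471 genes. They are Arntl (also called Bmal1), Clock, Per1, Per2, Per3, Cry1, Cry2, Nr1d1, Nr1d2 and Dbp, and their choice used no measured value of the table. All 10 passed the filter on low counts, which left 18441 genes tested. RNA sequencing was done on adult mouse brain, in punches from the ventral tegmental area, the part of the midbrain with many dopamine neurons. The tested treatment was repeated cross fostering (RCF), in which pups change adoptive mothers daily over postnatal days 1 to 4, and the controls were unhandled. The 40 libraries formed 8 groups of 5, which were DBA RCF males, DBA control males, DBA RCF females, DBA control females, C57 RCF males, C57 control males, C57 RCF females and C57 control females (C57 is C57/Bl6). The labels give no hour of collection, no light schedule and no litter, so the clock time behind each library is unknown, and a p-value reflects how much these libraries vary, which may be partly technical.

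The clock is a feedback loop of transcription that runs in most cells of the body. The proteins of Arntl and Clock pair and switch on the Per and Cry genes, whose proteins then block that pair. Arntl and Clock also drive Nr1d1 and Nr1d2, which encode the repressors REV-ERB alpha and beta and hold Arntl down, and Dbp, which encodes a transcription factor that passes the rhythm to output genes. In mouse tissues with a running clock, Arntl RNA therefore peaks at another time of day than the Dbp, Nr1d1 and Per RNAs. The master clock of mammals lies in the suprachiasmatic nucleus of the hypothalamus, and the midbrain carries a local clock.

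Upstream sequences of 4 of the genes are shown because the results below turn on these genes: Dbp and Per3 differed between strains, and Arntl and Nr1d1 had the highest correlation of any pair. Each run is the 300 bases from 250 before to 50 after a transcription start, taken from RefSeq on GRCm38.p6 and written 5′ to 3′ on the strand of the gene. The reference genome is that of a C57BL/6J mouse, and the DBA sequence was not used here. Capitals mark a searched motif. They are the D-box TTATGTAA in Per3, the REV-ERB and ROR element core TAGGTCA in Arntl, and the E-box variant CACGTT in Nr1d1, where it lies on the other strand and so reads AACGTG. The Dbp window (chr7:45704997-45705296, plus strand) holds none of the motifs searched. The Per3 window is chr4:151044616-151044915 on the minus strand, the Arntl window chr7:113207261-113207560 on the plus strand, and the Nr1d1 window chr11:98775328-98775627 on the minus strand.
Dbp: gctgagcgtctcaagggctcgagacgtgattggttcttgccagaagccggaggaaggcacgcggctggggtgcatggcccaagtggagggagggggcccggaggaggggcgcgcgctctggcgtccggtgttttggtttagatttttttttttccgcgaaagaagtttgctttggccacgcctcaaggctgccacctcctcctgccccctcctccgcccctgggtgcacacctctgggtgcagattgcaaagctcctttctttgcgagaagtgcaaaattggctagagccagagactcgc
Per3: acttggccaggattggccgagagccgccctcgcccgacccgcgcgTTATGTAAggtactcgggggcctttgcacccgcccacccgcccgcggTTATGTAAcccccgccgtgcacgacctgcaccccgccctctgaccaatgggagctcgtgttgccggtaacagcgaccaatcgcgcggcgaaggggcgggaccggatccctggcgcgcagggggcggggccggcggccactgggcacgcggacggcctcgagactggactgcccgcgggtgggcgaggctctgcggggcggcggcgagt
Arntl: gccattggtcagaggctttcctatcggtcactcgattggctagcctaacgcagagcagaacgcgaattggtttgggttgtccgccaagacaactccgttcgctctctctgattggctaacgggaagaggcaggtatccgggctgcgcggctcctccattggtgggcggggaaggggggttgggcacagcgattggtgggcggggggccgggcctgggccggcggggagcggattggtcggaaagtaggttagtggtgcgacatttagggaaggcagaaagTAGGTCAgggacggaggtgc
Nr1d1: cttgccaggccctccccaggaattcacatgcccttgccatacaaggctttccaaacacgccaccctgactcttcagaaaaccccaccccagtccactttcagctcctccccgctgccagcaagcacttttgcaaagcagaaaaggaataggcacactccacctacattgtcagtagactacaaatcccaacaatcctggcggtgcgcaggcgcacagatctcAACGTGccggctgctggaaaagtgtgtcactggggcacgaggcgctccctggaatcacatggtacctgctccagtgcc

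The RefSeq table held 13 windows for 9 of the 10 genes. The E-box CACGTG, to which Arntl and Clock bind, was in the windows of Cry1 and Per1, against 7.15% of all 32851 windows. Its variant CACGTT was in windows of Cry1, Cry2 and Nr1d1, against 4.68% of all windows. The D-box TTATGTAA, to which Dbp and its relatives bind, occurred at 2 places in the Per3 window, at positions −205 and −158 from the start, and in 0.938% of all windows. TAGGTCA, the core of the element to which the REV-ERB repressors and ROR activators bind, began 30 bases after the second Arntl start and was in 2.61% of all windows. The second D-box form TTACGTAA (0.119% of all windows), the second REV-ERB and ROR core TGGGTCA (3.98%) and the cyclic AMP element TGACGTCA (1.79%) were in none of the 13 windows. Both strands were searched, CACGTG and its own reverse complement being one word, and a match describes letters only.

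Positions and overlaps bear on 4 of the genes. Dbp (ENSMUSG00000059824.12, chromosome 7, 45705088 to 45710203, plus strand, GRCm38) shares 539 bases of exon with Sphk2 on the other strand, Nr1d1 (ENSMUSG00000020889.11, chromosome 11, 98767932 to 98775333, minus strand) 263 with Thra, Cry2 (ENSMUSG00000068742.11, chromosome 2, 92403646 to 92434043, minus strand) 295 with D930015M05Rik, and Arntl (ENSMUSG00000055116.8, chromosome 7, 113207465 to 113314126, plus strand) 33 with Gm45355. The library kit keeps strand, but the strand setting of the counting is not given in the sources used here, so reads in those stretches may belong to either gene. Per3 (ENSMUSG00000028957.12) lies on chromosome 4, 151003652 to 151044665, Per1 (ENSMUSG00000020893.17) on chromosome 11, 69095217 to 69109960, and Per2 (ENSMUSG00000055866.9) on chromosome 1, 91415982 to 91459324. Clock (ENSMUSG00000029238.11) lies on chromosome 5, 76209868 to 76304792, Cry1 (ENSMUSG00000020038.10) on chromosome 10, 85131700 to 85185064, and Nr1d2 (ENSMUSG00000021775.11) on chromosome 14, 18204054 to 18239127. None of these 6 shares exon bases with a gene on the other strand.

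Total counts ran from 16913124 to 28179071 per library, and the 10 genes had between 224 counts (lowest, Cry1) and 4728 counts (highest, Nr1d1) in a library. The tissue in the punches varied. Th, whose enzyme limits the rate of dopamine synthesis, ran between 0.725 and 1644 CPM (counts scaled to library size by the TMM method), so its level was near 0 in some libraries labelled ventral tegmental area. Of the 8 dopamine neuron markers examined, En1 was at 0 in 1 library and the other 7 had counts in all 40. Markers of the suprachiasmatic nucleus were low, with a highest value of 17.0 CPM for Vip and 27.8 CPM for Avp, and Avp was at 0 in 20 libraries. Marker means separated 4 libraries from the other 36: C57 control male replicates 1 and 5 and DBA control female replicate 3 by forebrain glutamate neuron markers (mean log2 CPM 8.64, 7.53 and 8.66), and C57 RCF female replicate 4 by hindbrain markers (5.83). Of the hindbrain list only Slc6a5 passed the filter, so the hindbrain mean is that of Slc6a5 alone. Hoxb5, Hoxb3 and Hoxa5, which did not pass, were also highest in C57 RCF female replicate 4. These 4 libraries were picked after the data were seen. In bulk tissue, fewer cells of a type and less RNA per cell cannot be told apart.

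All 10 clock genes were expressed in every library. Per kilobase of exon, the mean level was highest for the repressor gene Nr1d1 (40.4 CPM per kilobase) and the output gene Dbp (34.7), followed by Nr1d2 (18.6), Cry2 (15.6) and Per1 (13.3). Clock (5.78), Cry1 (4.95), Per2 (4.85), Per3 (4.62) and Arntl (2.50 CPM per kilobase) were lower. Nr1d1 was above Dbp in 32 of 40 libraries, and Dbp was above Nr1d2 in all 40. Cry1, Per2 and Per3 were not separated, since Cry1 exceeded Per2 in 22 of 40 libraries and Per2 exceeded Per3 in 24. Arntl, the positive arm of the loop, was below Per3 in 39 of 40.

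The spread of levels between libraries differed by gene. The highest library exceeded the lowest by 1.58-fold for Nr1d2, 1.59-fold for Clock and 1.67-fold for Cry2, and by 3.25-fold for Per3, whose highest value was 87.9 CPM in DBA control male replicate 4. For Arntl the ratio was 2.56, with 32.3 CPM in DBA control female replicate 3 as its highest level. That library, which stands apart by forebrain markers, also held the highest value of Per1, Per2, Cry2, Nr1d1, Nr1d2 and Dbp. Within groups, the standard deviation of log2 CPM was 0.31 for Arntl. This was higher than for 85.2% of 7007 genes with a mean log2 CPM between 4.04 and 6.94, the range of the clock genes. The standard deviation was 0.14 for Cry2, higher than for 34.4% of these genes, and the median gene of that range had 0.17. Without the 4 libraries the standard deviations were 0.27 for Arntl and 0.09 for Cry2. Arntl lies near the low end of that range (mean log2 CPM 4.20) and Cry2 near the high end (6.62). The percentages are not matched for level, so they do not show whether Arntl is variable for its own level.

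**Figure D1:**
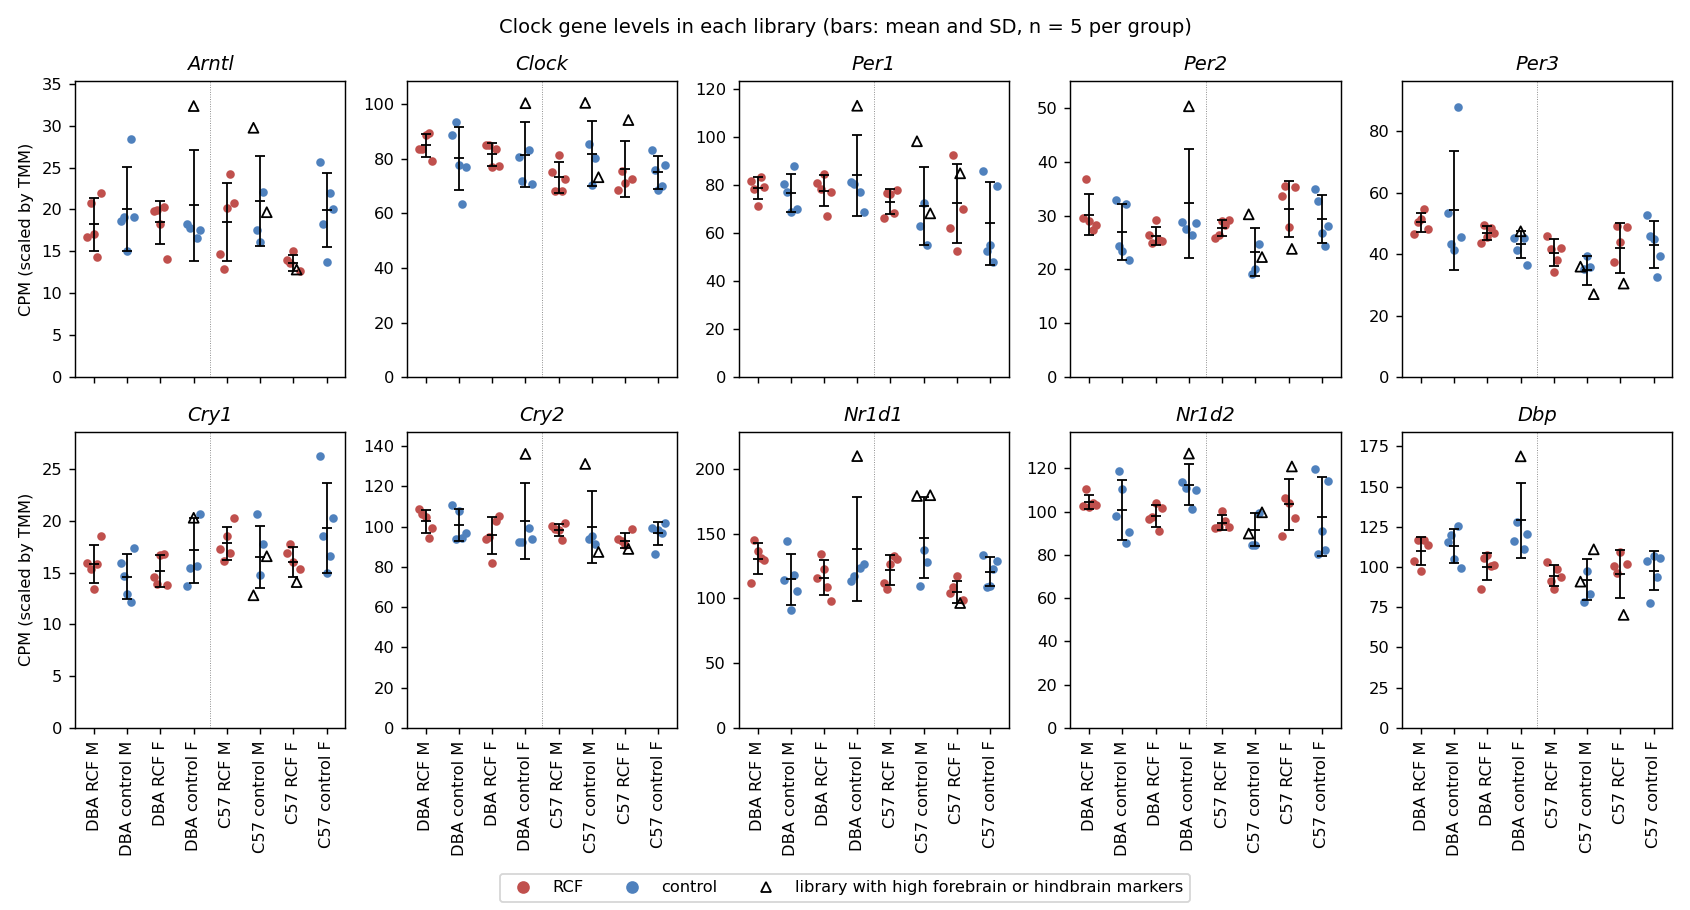
Level of each clock gene in each library, in CPM scaled by TMM on a linear axis that starts at 0, for the 8 groups. Bars show the mean and SD of 5 libraries, and triangles mark the 4 libraries with high forebrain or hindbrain markers. Most groups overlap, Dbp is higher in the DBA groups at the left of its panel, and DBA control female replicate 3 is at 168.8 CPM there.

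Dbp and Per3 were higher in DBA than in C57 mice, and the other 8 clock genes did not pass the test. Dbp was 0.24 higher on the log2 scale (SE 0.05, adjusted p = 6.4e-04) and Per3 0.28 higher (SE 0.07, adjusted p = 0.00313). Adjusted p-values of genes come from edgeR's quasi-likelihood F test with Benjamini-Hochberg adjustment over the 18441 genes, with calls at 0.05. The 2 calls of 10 are to be read against a background of 34.2% of all genes called between strains (17.1% higher and 17% lower in DBA), so the share of clock genes called was no larger than that of all genes. The median difference of the 10 genes was 0.10, against 0.00 for all genes tested, and 9 of the 10 differences were positive.

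Dbp averaged 113 ± 16.7 CPM in DBA mice and 95.0 ± 11.2 CPM in C57 mice (SD, n = 20 each). In DBA RCF males it had 103.7, 116.6, 97.4, 116.8 and 113.7 CPM, against 103.2, 91.5, 86.0, 98.6 and 94.0 CPM in C57 RCF males. In DBA control males it had 115.2, 120.0, 105.2, 125.4 and 99.4 CPM, against 90.9, 78.0, 97.8, 83.0 and 111.0 CPM in C57 control males. Both pairs of male groups leaned the same way and overlapped. In DBA RCF females Dbp had 86.1, 105.5, 107.6, 100.7 and 101.2 CPM, against 100.5, 96.5, 109.2, 70.2 and 101.6 CPM in C57 RCF females. In DBA control females it had 115.9, 128.1, 168.8, 111.3 and 120.5 CPM, against 103.9, 77.9, 106.7, 93.8 and 105.5 CPM in C57 control females. The control females did not overlap, and the RCF females overlapped almost fully. What share of all genes does not overlap between the control females of the strains was not counted. By pair of groups, the DBA minus C57 difference of Dbp was 0.21 in RCF males, 0.29 in control males, 0.07 in RCF females and 0.40 in control females (log2), of which the control female difference passed the test (adjusted p = 0.0149 with edgeR). Without DBA control female replicate 3 alone that difference was 0.28 and no longer passed (adjusted p = 0.107), without C57 control female replicate 2 it was 0.32 (adjusted p = 0.0809), and without the 4 libraries that stand apart it was 0.28 (adjusted p = 0.0301). Leaving out the 4, the control males passed too (0.40, adjusted p = 0.00407), and the RCF females were at −0.024. This drops C57 control male replicates 1 and 5 (90.9 and 111.0 CPM), the latter the highest of its group. It also drops C57 RCF female replicate 4 (70.2 CPM), the lowest of its group.

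Per3, the Per gene held to be least needed for rhythm in the mouse, averaged 48.7 ± 10.2 CPM in DBA mice and 40.1 ± 6.73 CPM in C57 mice (SD, n = 20 each). In DBA RCF males it had 46.6, 50.6, 51.7, 54.8 and 48.1 CPM, against 45.9, 41.8, 34.4, 38.2 and 42.1 CPM in C57 RCF males. In DBA control males it had 53.6, 43.3, 41.5, 87.9 and 45.5 CPM, against 35.99, 35.2, 39.6, 36.01 and 27.04 CPM in C57 control males. Neither pair of male groups overlapped, though in RCF males the nearest libraries were at 45.9 and 46.6 CPM. The share of all genes without overlap in these pairs was not counted. In DBA RCF females Per3 had 43.8, 49.5, 45.6, 48.7 and 47.1 CPM, against 37.6, 49.4, 43.9, 30.5 and 49.0 CPM in C57 RCF females. In DBA control females it had 45.4, 41.5, 47.5, 45.4 and 36.6 CPM, against 52.8, 45.9, 45.05, 32.6 and 39.6 CPM in C57 control females. Both pairs of female groups overlapped. The strain difference of Per3 was 0.32 in RCF males (adjusted p = 0.218), 0.64 in control males (adjusted p = 0.00246), 0.16 in RCF females (adjusted p = 0.498) and 0.00 in control females (log2, adjusted p = 0.994). Of these, only the control male difference passed the edgeR test. The difference between females and males in this strain effect was −0.40 (SE 0.15), which did not pass (adjusted p = 0.344 with edgeR). Without DBA control male replicate 4, the control male difference was 0.40 (adjusted p = 0.0294), the difference between females and males −0.28 (adjusted p = 0.449) and the overall difference 0.22 (adjusted p = 0.00423). The RCF female difference of Per3 was 0.064 without the 4 libraries that stand apart, and the control male difference was 0.56 (adjusted p = 0.0172, all with edgeR).

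Of the remaining genes, Per1, an early responder to light and hormones, averaged 79.3 ± 9.76 CPM in DBA mice and 70.2 ± 13.97 CPM in C57 mice (SD, n = 20 each; log2 difference 0.18, SE 0.08, adjusted p = 0.0662). Nr1d2 differed by 0.10 (adjusted p = 0.0926) and Clock by 0.10 (adjusted p = 0.123). Arntl (0.10), Per2 (0.06), Cry2 (0.05) and Nr1d1 (0.02) had adjusted p between 0.427 and 0.845 by the same edgeR test. Cry1, a repressor of the Arntl and Clock pair, was the one gene with a negative difference, at 15.7 ± 2.27 CPM in DBA mice and 17.4 ± 2.93 CPM in C57 mice (SD, n = 20 each; −0.15, SE 0.07, adjusted p = 0.0803). An F test for any difference among the 8 groups called the same 2 genes, Dbp (adjusted p = 0.00702) and Per3 (adjusted p = 0.0262), where 25% of all genes were called.

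The strain differences of the clock genes were also computed without the 4 libraries that stand apart, and then 5 genes passed, where 37.9% of all genes were called. Dbp (0.21, adjusted p = 1.9e-04) and Per3 (0.22, adjusted p = 0.0173) stayed higher in DBA by edgeR, and Per1 (0.20, adjusted p = 0.0217), Clock (0.11, adjusted p = 0.0307) and, as the one lower in DBA, Cry1 (−0.21, adjusted p = 0.0165) passed as well. Leaving out C57 control male replicate 1 or C57 RCF female replicate 4 alone also gave 5 genes. Marker lists moved with strain too. The dopamine neuron mean had a median of 3.75 log2 CPM over DBA libraries (range 2.64 to 9.12) and 6.43 over C57 libraries (range 2.16 to 8.78), and the hypothalamus mean 2.80 (0.74 to 5.31) in DBA and 1.45 (−0.92 to 4.70) in C57. With the dopamine neuron and forebrain means as covariates, Dbp differed by 0.29 (adjusted p = 1.4e-04) and Per3 by 0.29 (adjusted p = 0.00719). The part of the other lists in these differences was not tested.

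**Figure D2:**
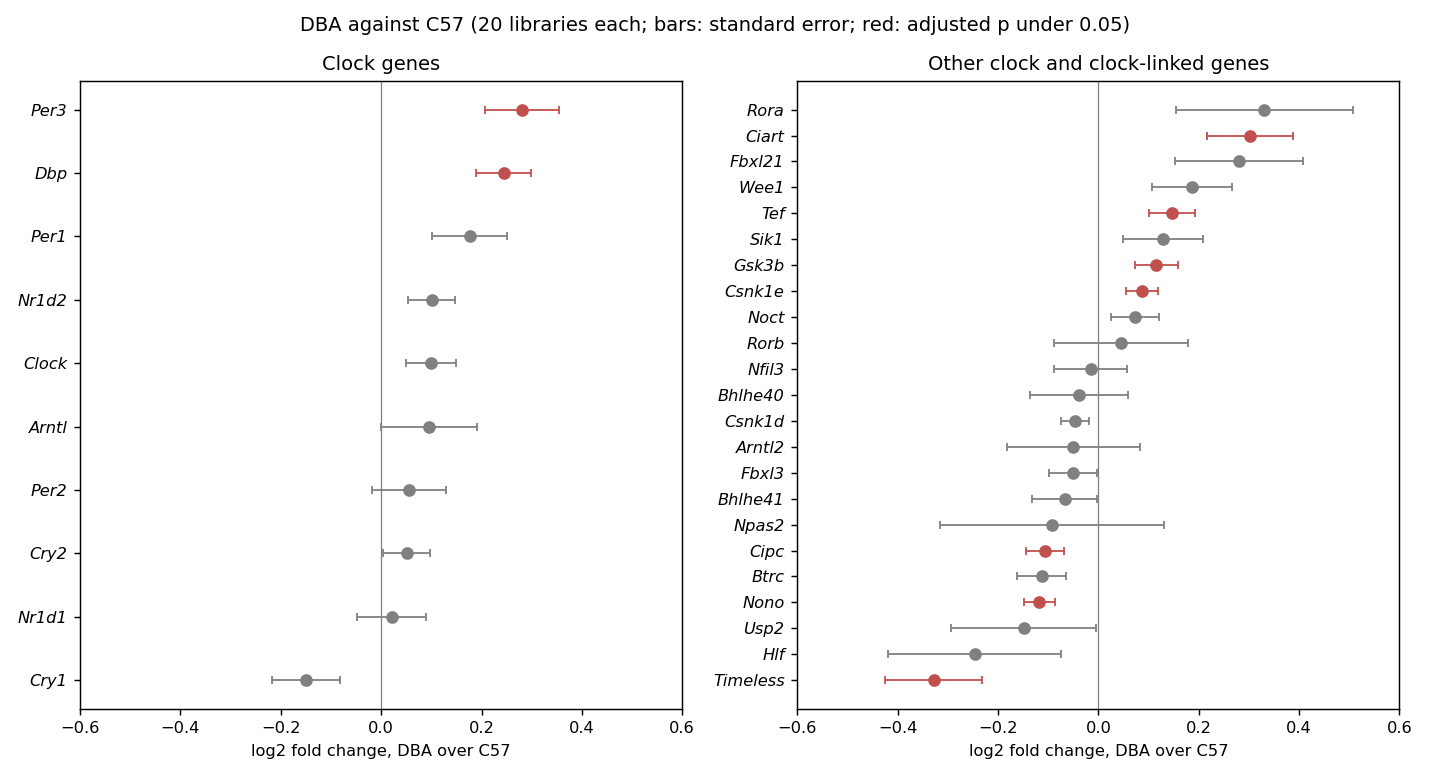
Log2 fold change of DBA over C57 over 20 libraries each, for the 10 clock genes (left) and other clock and clock-linked genes (right), with the standard error as bars. Genes with an adjusted p under 0.05 are red. Per3 at 0.28 and Dbp at 0.24 lead the left panel and Cry1 at −0.15 closes it.

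Among 24 other clock and clock-linked genes, 7 passed between strains, 4 higher and 3 lower in DBA, beside 34.2% of all genes. Ciart, a clock-controlled repressor of the Arntl and Clock pair, was at 17.0 ± 3.23 CPM in DBA mice and 13.7 ± 2.85 CPM in C57 mice (SD, n = 20 each; log2 difference 0.30, adjusted p = 0.00573). Tef, a close relative of Dbp that binds the same D-box, was at 259 ± 22.4 CPM in DBA mice and 234 ± 29.0 CPM in C57 mice (0.15, adjusted p = 0.0121). Csnk1e, a kinase that marks PER proteins for breakdown, was higher by 0.09 (adjusted p = 0.0308). Nono, which binds PER proteins, was lower, at 109.6 ± 6.45 CPM in DBA mice and 119 ± 7.19 CPM in C57 mice (−0.12, adjusted p = 0.00252). Timeless, at 3.72 ± 0.79 CPM in DBA mice and 4.69 ± 0.98 CPM in C57 mice, had a log2 difference of −0.33 (adjusted p = 0.00778), and Cipc, an inhibitor of Clock, one of −0.11 (adjusted p = 0.0257, all by edgeR). In the F test over the 8 groups, Npas2 (adjusted p = 0.0394) and Tef (adjusted p = 0.0403, edgeR) were among the genes of this list that passed. Npas2, a relative of Clock, was at 38.3, 21.1 and 39.2 CPM in C57 control male replicates 1 and 5 and DBA control female replicate 3, the 3 libraries with high forebrain markers, and at no more than 9.57 CPM in the others. In the F test Npas2 had an adjusted p of 0.143 without C57 control male replicate 1 and 0.0145 without the 4 libraries. Tef was at 0.0879 without DBA RCF male replicate 2, over 0.05 with many other single libraries left out, and at 0.00137 without the 4. Neither passed with no filter (Npas2 0.101, Tef 0.0621), the replicate block (0.0932, 0.0640) or marker covariates (0.135, 0.0550). Limma voom gave 0.480 and 0.0329, and DESeq2 0.00389 and 0.0202.

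RCF and control mice were compared in each strain and sex to ask whether the early change of mothers left a difference in adult clock gene expression. edgeR called 0 of the 10 clock genes in C57 males (0.0108% of all genes called), C57 females (0.00542%), DBA males (0.0163%) and DBA females (0.0163%), and 0 for the mean of the 4 differences (0.0217%). DESeq2 and limma voom called 0 as well. At an unadjusted p under 0.05 there were 0, 1, 0 and 2 clock genes in those 4 comparisons and 1 for the mean, and all genes passed that level at rates of 6.72% to 12.5%. With so few genes called across the whole table, the 0 says only that no clock gene stood out at 5 libraries a group.

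Arntl had the lowest RCF to control difference of the 10 genes in C57 females, DBA males and the mean of the 4. In C57 females it had 13.95, 13.6, 15.1, 12.8 and 12.6 CPM after RCF, against 25.7, 18.3, 13.7, 21.9 and 20.03 CPM in controls. Thus 4 of 5 controls lay above all RCF libraries and control replicate 3 lay among them (log2 difference −0.55, SE 0.19, adjusted p = 0.247 with edgeR). In C57 males Arntl had 14.7, 12.9, 20.1, 24.2 and 20.8 CPM after RCF, against 29.7, 17.6, 16.1, 22.1 and 19.7 CPM in controls, and the groups overlapped (−0.18, SE 0.19). This difference was −0.0016 without the 4 libraries that stand apart, among them control replicates 1 and 5. In DBA males it had 16.8, 20.8, 17.1, 14.4 and 22.0 CPM after RCF, against 18.6, 19.1, 15.03, 28.4 and 19.2 CPM in controls (−0.14, SE 0.19). In DBA females it had 19.8, 19.9, 18.2, 20.3 and 14.1 CPM after RCF, against 18.2, 17.8, 32.3, 16.6 and 17.5 CPM in controls (−0.15, SE 0.19). Both DBA pairs overlapped, and in DBA females the sign rests on control replicate 3, since the difference was 0.08 without it. In DBA males it was 0.012 without control replicate 4. The mean of the 4 differences was −0.25 (SE 0.10, adjusted p = 0.689 with edgeR), and −0.15 (adjusted p = 0.802) without the 4 libraries that stand apart.

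The C57 females also differed in tissue markers. The dopamine neuron mean had a median of 8.17 log2 CPM after RCF (range 2.44 to 8.56) and 3.82 in controls (2.89 to 8.44), and the astrocyte mean 7.93 (7.73 to 8.05) and 7.22 (7.02 to 7.88). The hypothalamus mean was 0.26 (−0.92 to 0.66) after RCF and 1.86 (−0.36 to 4.46) in controls. The hindbrain mean, which is that of Slc6a5 alone, was 0.78 (0.28 to 5.83) after RCF and −1.30 (−2.26 to −0.068) in controls. The groups did not overlap in this single gene, and the share of all genes without overlap was not counted. With dopamine neuron and forebrain means as covariates the Arntl difference was −0.42 (adjusted p = 0.326 with edgeR), and the part of the other lists was not tested.

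Dbp was the clock gene with the lowest adjusted p in DBA females. All 5 RCF libraries (86.1 to 107.6 CPM) lay below all 5 controls (111.3 to 168.8 CPM). How many of all genes separate in this way was not counted, so the separation is not read as rare. The log2 difference was −0.36 (SE 0.11, adjusted p = 0.232 with edgeR). In this comparison 0.0163% of all genes were called, and 12.3% had an unadjusted p under 0.05. Leaving out 1 library at a time, this difference lay between −0.41 and −0.24, with −0.24 without control replicate 3, and it passed the adjusted threshold under none of these. In the other pairs Dbp differed by 0.04 in C57 males, −0.03 in C57 females and −0.04 in DBA males. The RCF effect on Dbp in DBA minus that in C57 was −0.21 (SE 0.11, adjusted p = 0.847 with edgeR).

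The repressor genes showed no called RCF difference either. Nr1d1 had RCF differences of −0.27 in C57 males, −0.20 in C57 females, −0.25 in DBA females and 0.19 in DBA males (SE 0.14 each, edgeR adjusted p 0.458 to 0.816). The difference of Nr1d1 was −0.037 in C57 males and −0.046 in DBA females without the 4 libraries that stand apart, and without DBA control female replicate 3 alone it was −0.05 in DBA females. Per2 had 26.2 ± 1.71 CPM in DBA RCF females and 32.3 ± 10.1 CPM in DBA control females (SD, n = 5 each; −0.30, adjusted p = 0.408 with edgeR), where control replicate 3 alone reached 50.3 CPM and the difference was −0.079 without it. Cry1 had 16.01 ± 1.41 CPM in C57 RCF females and 19.3 ± 4.37 CPM in C57 control females (SD, n = 5 each; −0.27, SE 0.13, adjusted p = 0.403 with edgeR). C57 control female replicate 1 held the highest Cry1 value of all libraries (26.3 CPM). With 1 library left out at a time, this Cry1 difference lay between −0.35 and −0.13. Clock, Per1, Per3, Cry2 and Nr1d2 had RCF differences between −0.20 and 0.22 in the 4 pairs, with standard errors between 0.09 and 0.15. Some of these turned sign with 1 library left out, such as Per3 in DBA males (0.12 without control replicate 4) and Cry2 in DBA females (0.024 without control replicate 3).

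**Figure D3:**
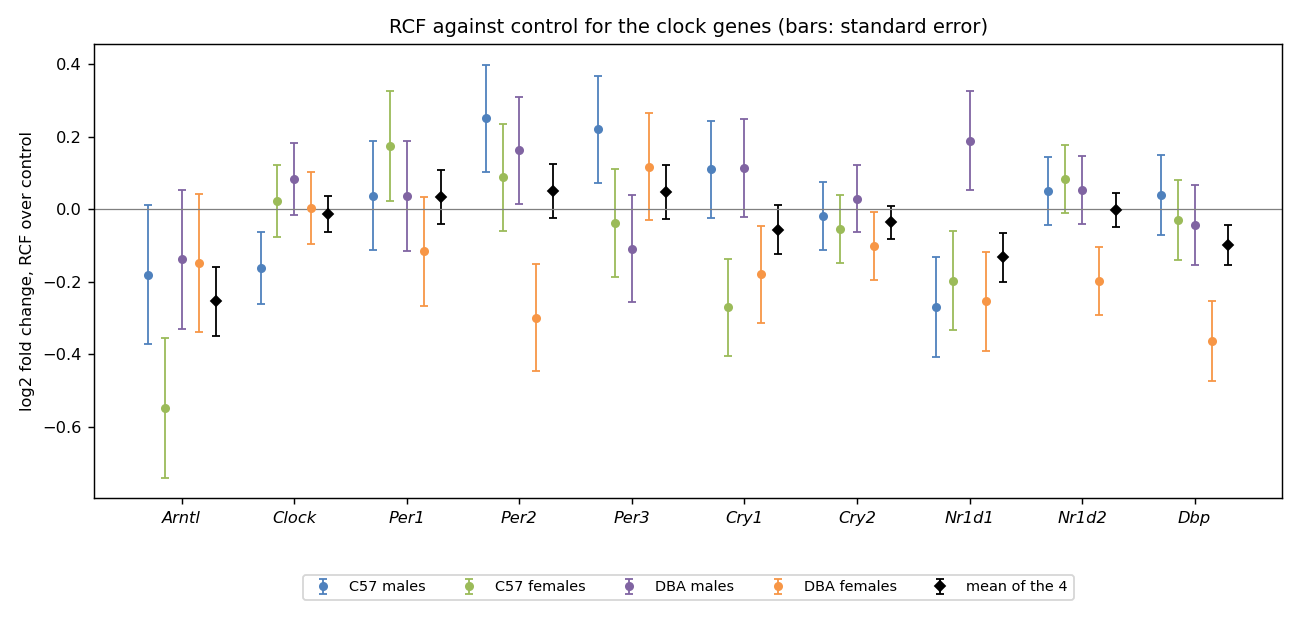
Log2 fold change of RCF over control for each clock gene in C57 males, C57 females, DBA males and DBA females (5 against 5 libraries each) and for the mean of the 4, with the standard error as bars. Arntl lies below 0 in all 4 pairs and at −0.55 in C57 females, and Dbp lies at −0.36 in DBA females. No point passed adjustment.

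The RCF effect was also compared between strains and between sexes. edgeR called 0 clock genes for the difference between strains (0.0108% of all genes called) and 0 for that between sexes (0.00542%), and at an unadjusted p under 0.05 there were 0 (6% of all genes) and 2 (8.48% of all genes). The 2 were Cry1, with an RCF effect in females minus males of −0.34 (SE 0.13, adjusted p = 0.527), and Per2, with −0.31 (SE 0.15, adjusted p = 0.583). That of Cry1 was −0.22 without the 4 libraries that stand apart, and without DBA control female replicate 3 that of Per2 was −0.20. Between females and males over all groups, edgeR called 0 of 10 (0.146% of all genes called) and 0 at the unadjusted level, which 9.68% of all genes passed. The largest sex difference was that of Per2, at 0.14 for females minus males (SE 0.07, adjusted p = 0.549), and 0.088 without DBA control female replicate 3. Among the 24 other clock genes, edgeR called 0 in each of the RCF, sex and RCF interaction comparisons, with 1 to 5 at an unadjusted p under 0.05. In these comparisons 6% to 12.5% of all genes passed that level. The 5 were in RCF against control DBA females, where 12.3% of all genes passed it.

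Arntl was then set against the Per genes and Dbp over libraries, since in a running clock their peaks fall at different times of day. Deviations of log2 CPM from the group mean were used, so strain, sex and treatment do not enter, and p came from 100000 permutations within groups, adjusted over the 45 pairs of clock genes. No pair with Arntl had a negative correlation. Arntl correlated positively with Per2 (Pearson r = 0.63, permutation p = 4.3e-04, adjusted p = 0.0075, Spearman rho = 0.54, adjusted p = 0.0216, n = 40), and the correlation was 0.49 without the 2 libraries farthest from the Arntl median. With Per1, r was 0.38 (permutation p = 0.0265, adjusted p = 0.0784, rho = 0.28), and 0.25 without those 2 libraries. With Per3 it was 0.21 (adjusted permutation p = 0.415, rho = 0.02), and −0.03 without them. With Dbp it was 0.29 (permutation p = 0.0954, adjusted p = 0.215, rho = 0.20), and 0.09 without them. In values without the 2 farthest libraries, here and below, the group means still included those libraries.

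Counted by library, Arntl and Per2 deviated to the same side of their group means in 30 of 40 libraries, Arntl and Per1 in 25, Arntl and Dbp in 23 and Arntl and Per3 in 20. The remaining 10, 15, 17 and 20 libraries had the genes on opposite sides. Of the genes that the clock sets against Arntl, its repressor Nr1d1 followed it most closely, with r = 0.69 (permutation p = 2e-04, adjusted p = 0.0075, rho = 0.71, adjusted p = 9e-04) and 30 of 40 libraries on the same side. Without the 2 farthest libraries this r was 0.62. Nr1d2 had r = 0.14 with Arntl (adjusted permutation p = 0.542).

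**Figure D4:**
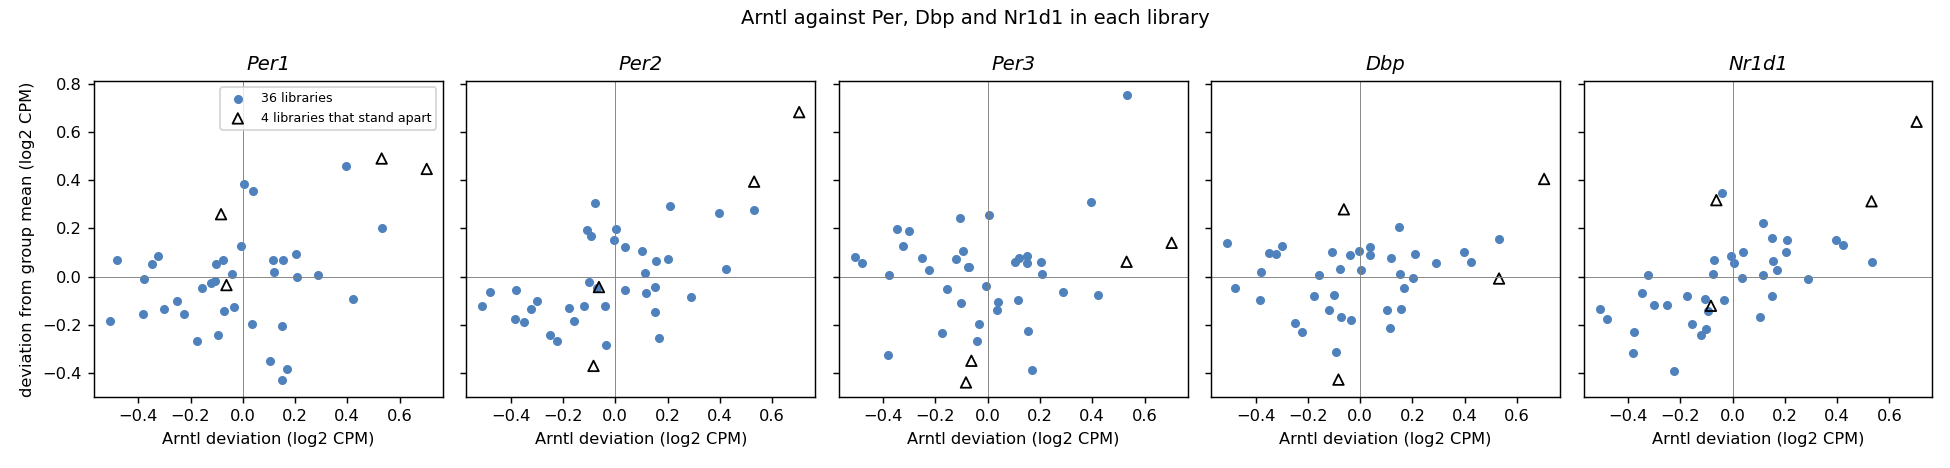
Deviation of Per1, Per2, Per3, Dbp and Nr1d1 from their group means (log2 CPM, vertical axes) against that of Arntl (horizontal axes) in 40 libraries. Open triangles are the 4 libraries that stand apart by markers. The points rise with Arntl for Per2 (r = 0.63) and Nr1d1 (r = 0.69) and scatter around 0 for Per3 (r = 0.21).

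Over all 45 pairs of clock genes, 40 correlations were positive, the median was 0.27, and 3 passed adjustment, all positive. The third was Nr1d1 with Dbp (r = 0.61, adjusted permutation p = 0.0075, rho = 0.54, adjusted p = 0.0287), 2 genes that peak at neighbouring times in mouse tissues, and it was 0.47 without the 2 libraries farthest from the Nr1d1 median. The lowest r was −0.26, between Per3 and Nr1d2. How often pairs of other genes correlate positively was not counted, so the positive signs are not read as particular to clock genes. All 3 calls rest on DBA control female replicate 3, which was high in all 4 genes involved. Without it, r was 0.50 for Arntl with Per2 (adjusted permutation p = 0.0742), 0.58 for Arntl with Nr1d1 (0.0725) and 0.48 for Nr1d1 with Dbp (0.0864). Without the 4 libraries that stand apart, 34 of 45 correlations were positive, the median was 0.16 and 0 passed, and Arntl had r = 0.42 with Per2, 0.56 with Nr1d1, 0.14 with Per1, 0.18 with Per3 and 0.09 with Dbp. Within DBA libraries r between Arntl and Dbp was 0.61 (adjusted permutation p = 0.151) and within C57 libraries 0.03 (adjusted permutation p = 0.956, n = 20 each). The DBA value includes DBA control female replicate 3, which deviated by 0.70 in Arntl and 0.41 in Dbp. As r within DBA was not computed without that library, no strain difference in this relation is read from the values.

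**Figure D5:**
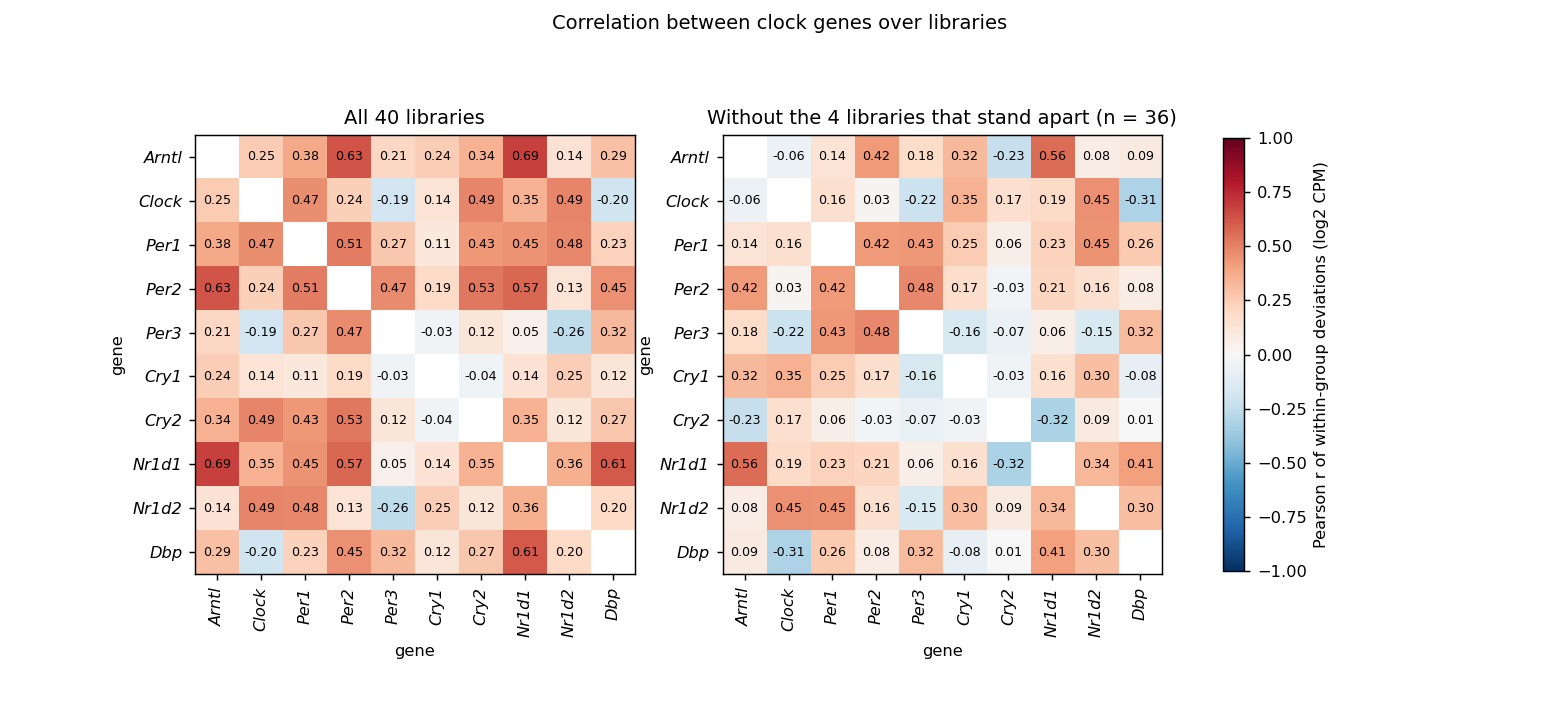
Pearson correlations of within-group deviations of log2 CPM between the 10 clock genes, over all 40 libraries (left) and over the 36 libraries left without the 4 that stand apart (right). Red is positive and blue negative. The strongest cell on both sides is Arntl with Nr1d1, at 0.69 and 0.56.

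Marker lists moved with Arntl over the same libraries. Its correlation was −0.60 with the dopamine neuron mean (permutation p = 1.4e-04, adjusted p = 0.0098 over 140 relations), −0.57 with oligodendrocytes (adjusted p = 0.0322), −0.51 with astrocytes (adjusted p = 0.0386) and 0.66 with immediate early genes such as Fos and Egr1 (adjusted p = 0.0098, permutation tests). Without the 4 libraries, r of Arntl was −0.68 with dopamine neurons and 0.66 with immediate early genes (both adjusted permutation p = 0.0340), and its relations with oligodendrocytes (−0.47, adjusted permutation p = 0.178) and astrocytes (−0.50, 0.0809) no longer passed. Nr1d1 showed the same pair of signs, with −0.48 for dopamine neurons and 0.55 for immediate early genes (both adjusted permutation p = 0.0446). Per2 had −0.51 with oligodendrocytes (adjusted permutation p = 0.0451), Clock 0.61 with immediate early genes (0.0382) and Cry1 0.53 with hypothalamus markers (0.0451). None of these 5 passed without the 4 libraries, where Nr1d1 had −0.52 and 0.50 (both adjusted permutation p = 0.121), Per2 −0.32 (0.502), Clock 0.25 (0.555) and Cry1 0.57 (0.0683). In those 36 libraries microglia passed with Arntl (−0.63, adjusted permutation p = 0.0340) and Per2 (−0.59, 0.0366), dopamine neurons with Cry1 (−0.58, 0.0340) and endothelial markers with Dbp (0.54, 0.0364). Dbp and Per3 passed with no list over the 40 libraries, and no clock gene passed with sequencing depth (r between −0.32 and 0.23). With dopamine neuron and forebrain means removed, r of Arntl was 0.52 with Per2 (adjusted permutation p = 0.0360) and 0.46 with Nr1d1 (0.102). With oligodendrocyte and astrocyte means removed as well, it was 0.36 with Per2 (0.176) and 0.54 with Nr1d1 (0.0203).

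The ratio of Dbp to Arntl, which swings widely over the day in a rhythmic tissue, was compared between groups as a log2 difference of levels. It averaged 2.60 ± 0.25 in DBA RCF males and 2.52 ± 0.26 in DBA control males, 2.44 ± 0.27 in DBA RCF females and 2.68 ± 0.18 in DBA control females, 2.38 ± 0.40 in C57 RCF males and 2.15 ± 0.41 in C57 control males, and 2.79 ± 0.21 in C57 RCF females and 2.31 ± 0.39 in C57 control females (SD, n = 5 each). The ranges of RCF and control overlapped in each of the 4 pairs, and over all libraries this log2 difference lay between 1.61 and 3.02.

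By the same deviations over the 40 libraries, the genes most like Arntl among 10798 genes were Lsm14b (r = 0.80), Adgrb1 (0.80) and Dlg4 (0.80), followed by Lzts3, Srpk1, Serbp1, Plch2, Efna3, Lingo3 and Crtc1 (0.77). Dlg4 encodes the postsynaptic scaffold PSD-95 and Adgrb1 an adhesion receptor of synapses. Without the 4 libraries, Serbp1, Efna3 and Dlg4 were again among the 10 most like Arntl. Those most like Dbp were Gabra4 (0.73), a GABA receptor subunit, Maz (0.72), Cnih2 (0.72), an auxiliary subunit of AMPA receptors, Dnal4, Chrm1, Crip2, Ankrd45, B230334C09Rik and Orai3 (0.69). Without the 4 libraries none of these stayed, and Arl15 (0.69) led, followed by Impdh1, Id3, Lemd2, Glb1l, Klf2, Igfbp7, Tie1, Nr2f6 and Fxyd1 (0.62). Among the 24 other clock genes, Noct (0.70), which encodes nocturnin, and Tef (0.65) were most like Arntl, and Bhlhe40, a repressor of the Arntl and Clock pair, had r = 0.78 with Nr1d1 (0.78 also without the 4 libraries). These 3 were singled out after their values were seen.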

How the data were processed

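The labels give messenger RNA sequencing of frozen ventral tegmental area punches, extracted with a Norgen column kit, made into strand-keeping libraries by the Universal Plus mRNA-Seq kit of Tecan and sequenced as single 75 bp reads. The submitters' processing notes name the tools FastQC, cutadapt 1.11 and bcl2fastq 2.20 and the builds GRCm38 and mm10. What aligned and counted the reads, and with which strand setting, is not given in the sources used here. Raw counts of reads per gene are what the authors deposited.

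All 40 libraries entered one edgeR 4.0.16 model (R 4.3.3, robust quasi-likelihood F test, TMM factors between 0.905 and 1.09, filterByExpr over the 8 groups) with a mean per group and 32 residual degrees of freedom. P-values were adjusted by Benjamini-Hochberg over 18441 genes within a comparison, with a threshold of 0.05. DESeq2 1.42.0, limma voom (3.58.1), other scalings, no filter, marker covariates and leaving out libraries were alternatives. Correlations used log2 CPM with a prior count of 2. Libraries that stand apart had a forebrain mean over 7 or a hindbrain mean over 5 log2 CPM. Counts of libraries of one group differed by more than sampling noise in all 80 pairs. The genes, the lists and the tests were chosen with earlier results of these data known. The 10 clock genes were listed by name and not by a measured value. The rule named all 10 clock genes, of 24 other clock genes at most 6 past the threshold in each comparison by smallest p, and the 10 genes most like Arntl and Dbp with a mean log2 CPM of at least 3. Marker means use tested genes only, which leaves Slc6a5 alone in the hindbrain list. Some genes that these rules take in are not reported here. The test was checked on simulated counts.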

Additional observations from a re-analysis of the deposited data

Results flagged for a closer look

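In 10 of 80 sets of 5 libraries (a gene in a group), the highest library stood far from the other 4. Chance alone flags about 1 in 20 sets of normal values. The genes share the same libraries, so the 80 sets are not independent and no excess is read from the count. DBA control female replicate 3, which has high forebrain markers, accounted for 5 of the 10. It had 32.3 CPM of Arntl (the other 4 had 16.6 to 18.2), 113 CPM of Per1 (others 68.8 to 81.2), 50.3 CPM of Per2 (others 26.4 to 28.7), 136 CPM of Cry2 (others 92.2 to 99.3) and 209.9 CPM of Nr1d1 (others 113.7 to 126.9).

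C57 control male replicate 1, also with high forebrain markers, had 131 CPM of Cry2, against 87.4 to 95.1 CPM in the others of its group. C57 RCF female replicate 4, with high hindbrain markers, had 94.2 CPM of Clock, against 68.5 to 75.4 CPM. DBA control male replicate 4, which held the highest levels of the hypothalamic genes Pmch and Hcrt of all libraries, had 87.9 CPM of Per3, against 41.5 to 53.6 CPM. DBA RCF male replicate 2 had 36.7 CPM of Per2, against 27.3 to 29.5 CPM, and 110.4 CPM of Nr1d2, against 102.2 to 104.2 CPM. The part of the tissue markers in these values was not tested.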

How the results depend on the processing

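The count of clock genes called between strains was 2 under both other scalings, no filter, DESeq2 and the replicate block, 3 under limma voom (with Per1) and with marker covariates (with Cry1), and 5 without the 4 libraries that stand apart, an alternative chosen after seeing the data. Leaving out each library in turn gave 2 to 5 (5 without C57 control male replicate 1 or C57 RCF female replicate 4, 4 without C57 control female replicate 1 or DBA control female replicate 5), and 1 to 3 for the F test over the 8 groups (1 without C57 control male replicate 5). Dbp and Per3 passed between strains under every alternative run, with log2 differences of 0.21 to 0.29 and 0.22 to 0.30. Of 88 log2 differences that did not pass, 27 changed sign under an alternative, so no direction is claimed for them. All RCF and sex counts stayed at 0 under every alternative. The correlation of Arntl with Per2 no longer passed with values not centred (0.30), within DBA (0.73) or C57 libraries (0.52), without the 4 libraries (0.42) or with 4 marker means removed (0.36, also chosen after seeing the data), and lay between 0.50 and 0.67 with each library left out. Signs turned for Arntl with Per1 (−0.11 with 4 marker means removed), Per3 (−0.11 within C57, and between −0.0084 and 0.26 with each library left out), Nr1d2 (−0.047 with 2 marker means removed, −0.0552 within DBA), Clock (−0.15 with 2 and −0.0564 with 4 marker means removed, −0.0551 without the 4 libraries) and Cry2 (−0.23 without the 4 libraries, −0.0399 with 4 marker means removed), and for Per1 with Dbp (−0.0108 within C57). The cause was not tested. The replicate numbers do not pair the libraries (20 pairs of RCF and control libraries with one number, r of deviations −0.27 to 0.18, 2 over 0.1, and 3 that correlated best with their own number), and the replicate block changed no call of the 10 clock genes between groups. The hour of collection is not in the labels, so these values cannot show a rhythm.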
